A study of Xenopus laevis with 8 samples.

Results

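The comparison described here set animal caps that had received chordin and wnt3a messages together with an lrig3 morpholino (2 arrays, called morpholino caps below) against uninjected animal caps (2 arrays), which are 4 of the 8 arrays of the series. An animal cap is the ectoderm around the animal pole of the Xenopus laevis blastula. Messages or the morpholino were put into the animal pole at the 2-cell stage, the caps were cut at stage 9 and cultured, and the labels give stage 15 as the stage of collection for the arrays. The remaining 4 arrays hold caps with chordin and wnt3a messages (2 arrays) and caps with chordin message alone (2 arrays). The uninjected caps carried no injected reagent, so the morpholino caps differ from them by chordin, wnt3a, the morpholino and the injection itself, and these cannot be told apart in this comparison. The labels name no control morpholino and do not say how many caps or batches of embryos made up a sample.

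Left alone, cap cells take on epidermal fate under the control of bone morphogenetic protein (BMP) signals, and the larval epidermis holds mucus-secreting goblet cells, multiciliated cells and proton-pumping ionocytes among its outer and inner layers. Chordin is a secreted protein that binds BMPs and in caps gives anterior neural tissue, with eye field and cement gland. Wnt ligands such as Wnt3a posteriorise neural tissue and, with partial BMP inhibition and FGF signals, induce the neural plate border and the neural crest, the migratory cell population that gives pigment cells, peripheral neurons and facial cartilage. Lrig3 spans the cell membrane and carries leucine-rich repeats and immunoglobulin domains outside the cell, and a morpholino binds a chosen message and stops it from being translated or spliced. The question put to the 4 arrays was which fate the morpholino caps had relative to epidermal ectoderm.

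The values are MAS5 signal intensities of single arrays, so each level below is a signal of a probe set, given as replicate 1 and then replicate 2 of its group. A change is a difference of log2(signal + 5.22) between group means of 2 arrays each, with the standard error (SE) of a limma fit over all 8 arrays, and probe sets were called at a Benjamini-Hochberg adjusted p, over 22000 tested probe sets, below 0.05. "Rose" and "fell" are written only of called genes. This frog is allotetraploid, and .L and .S name the gene copies of its long and its short chromosome sets. Where both arrays of a group lay at or below the highest negative control of their array (19.5 to 30.8 over the arrays), only a lower bound is printed, written "at least N-fold".

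The replicates of the morpholino group differed from each other more than those of the uninjected group. Across the tested probe sets the morpholino arrays correlated at r = 0.929 and the uninjected arrays at r = 0.967, and morpholino replicate 1 correlated less with the uninjected arrays (r = 0.757 and 0.739) than morpholino replicate 2 did (r = 0.840 and 0.857). These are descriptions over probe sets, which are not independent. Of 8821 tested symbols, 109 were over 4-fold higher on morpholino replicate 1 than on replicate 2 and 190 were over 4-fold lower, against 25 and 39 between the uninjected arrays. The gaps lay in particular gene groups, as the plot of replicate differences shows. Many posterior and mesodermal genes were higher on morpholino replicate 1 than on replicate 2: 14 of 26 midbrain to posterior genes and 10 of 21 mesoderm and muscle genes were over 4-fold higher there. Genes of multiciliated cells and ionocytes ran the other way, with 22 of 43 and 9 of 19 over 4-fold higher on replicate 2. For these reasons list counts are given with all arrays and with the morpholino and uninjected arrays left out in turn.

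**Figure D1:**
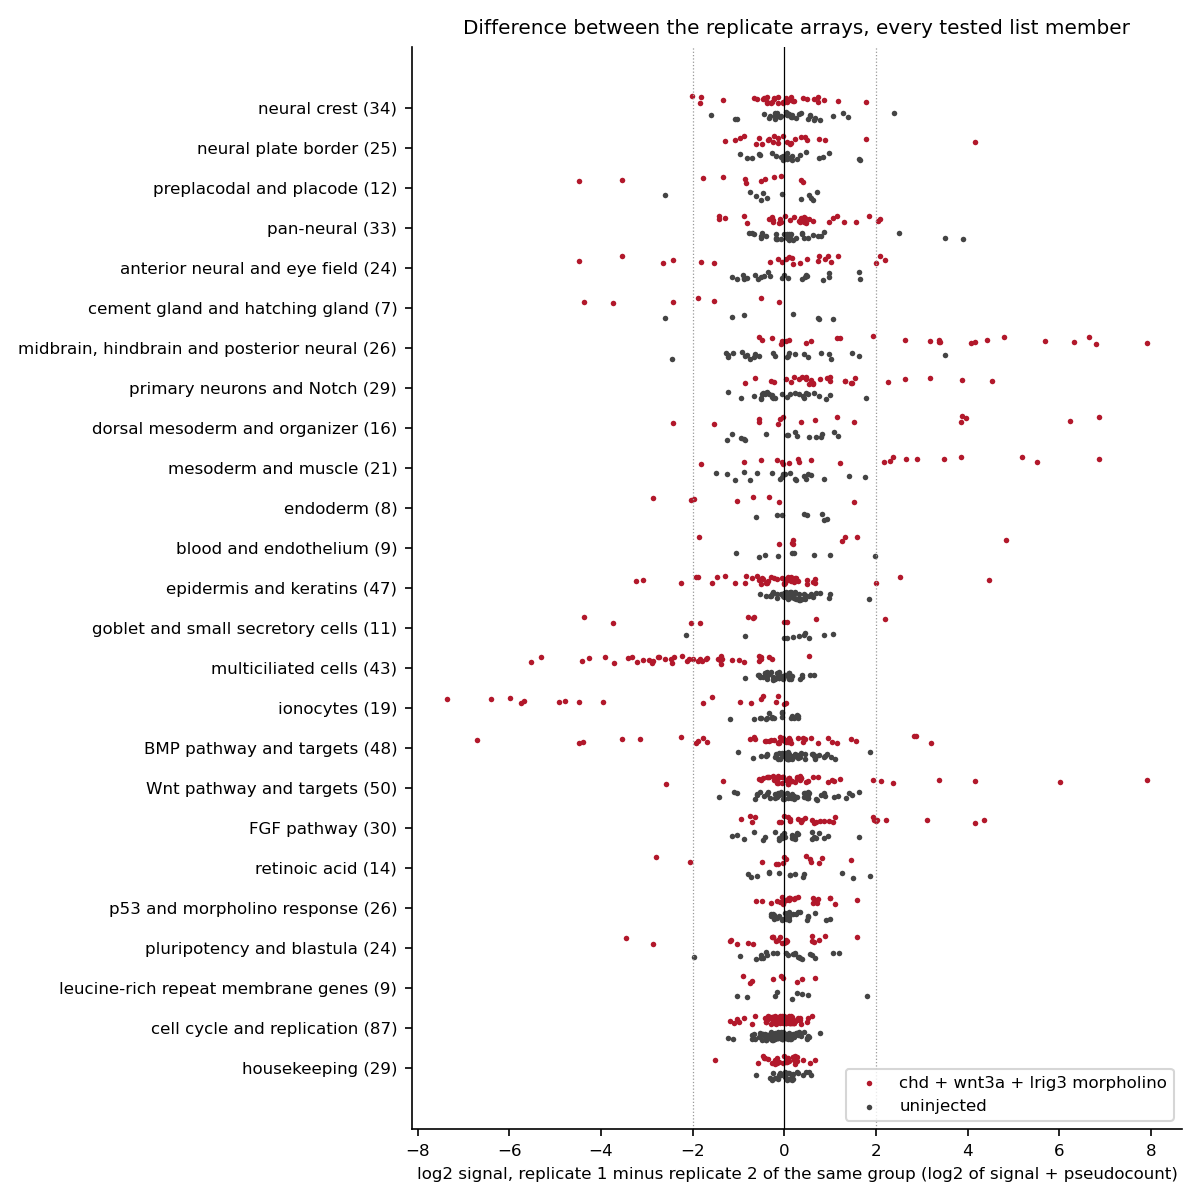
Difference in log2(signal + pseudocount) between replicate 1 and replicate 2 of morpholino caps (red, upper row of each list) and of uninjected caps (grey, lower row), with 1 point for each tested member and the number of members in brackets; dotted lines mark 4-fold. Red points spread to the right in the posterior neural and mesoderm lists and to the left in the multiciliated cell and ionocyte lists, where no grey point of the multiciliated or ionocyte list passes 4-fold.

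The injected messages and the targeted gene were read first. The probe set for wnt3a.S gave 27548 and 25480 in morpholino caps, against 28.2 and 14.1 in uninjected caps, at least 864-fold higher (adjusted p = 5.20e-05), the largest rise of any tested symbol. The probe set for chrd.1.S, the chordin gene, gave 156 and 159 in morpholino caps, against 1.66 and 1.34 in uninjected caps, at least 5.3-fold higher (adjusted p = 0.00165). Both probe sets also read the embryo's own genes. Lrig3.S had 4787 and 3002 in morpholino caps, against 95.6 and 172 in uninjected caps, a log2 change of 4.83 (SE 0.35, adjusted p = 0.000407). It was higher on both morpholino arrays than on either uninjected array, and it also exceeded the 741 and 756 of chordin and wnt3a caps (log2 change 2.33, SE 0.35, adjusted p = 0.0246). Because a morpholino acts on the message without needing to remove it, this signal does not check the knockdown. Chordin caps had 3191 and 2158 for lrig3.S, a difference that did not pass (log2 change 0.53, SE 0.35, adjusted p = 0.360). Of the other tested members of the list of leucine-rich repeat membrane genes, flrt3.L and flrt3.S, which encode transmembrane proteins of FGF signalling, rose, flrt3.L by a log2 change of 2.60 and flrt3.S at least 3.12-fold, and tsku.L, which encodes the secreted protein Tsukushi, fell (-1.64). The list had 9 tested members, of which 4 rose, 2 fell and 3 did not pass the test, and 3, 4, 5 and 3 rose with morpholino replicates 1 and 2 and uninjected replicates 1 and 2 left out in turn.

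Limma called 7969 of 22000 probe sets (36.2%), 4606 of them higher (20.9%) and 3363 lower (15.3%) in morpholino caps. With 1 probe set per symbol, the brightest, 37.5% of 8821 symbols were called, 20.9% higher and 16.6% lower, and the median log2 change was 0.08. These shares are the background against which the lists below are to be read. When the arrays were set to equal poly-A control signal, which is called spike-in scaling below, the split was 1455 higher and 2201 lower, and the median over probe sets was -0.13 in place of 0.11, so that changes smaller than this shift have no settled sign. The controls themselves gave mean signals of 1006 and 881 on the morpholino arrays, against 1094 and 576 on the uninjected arrays. The totals called were 3151 and 6990 without morpholino replicates 1 and 2, and 3265 and 3588 without uninjected replicates 1 and 2. Caps are bulk samples, so fewer cells of a type and less RNA per cell cannot be told apart here.

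**Figure D2:**
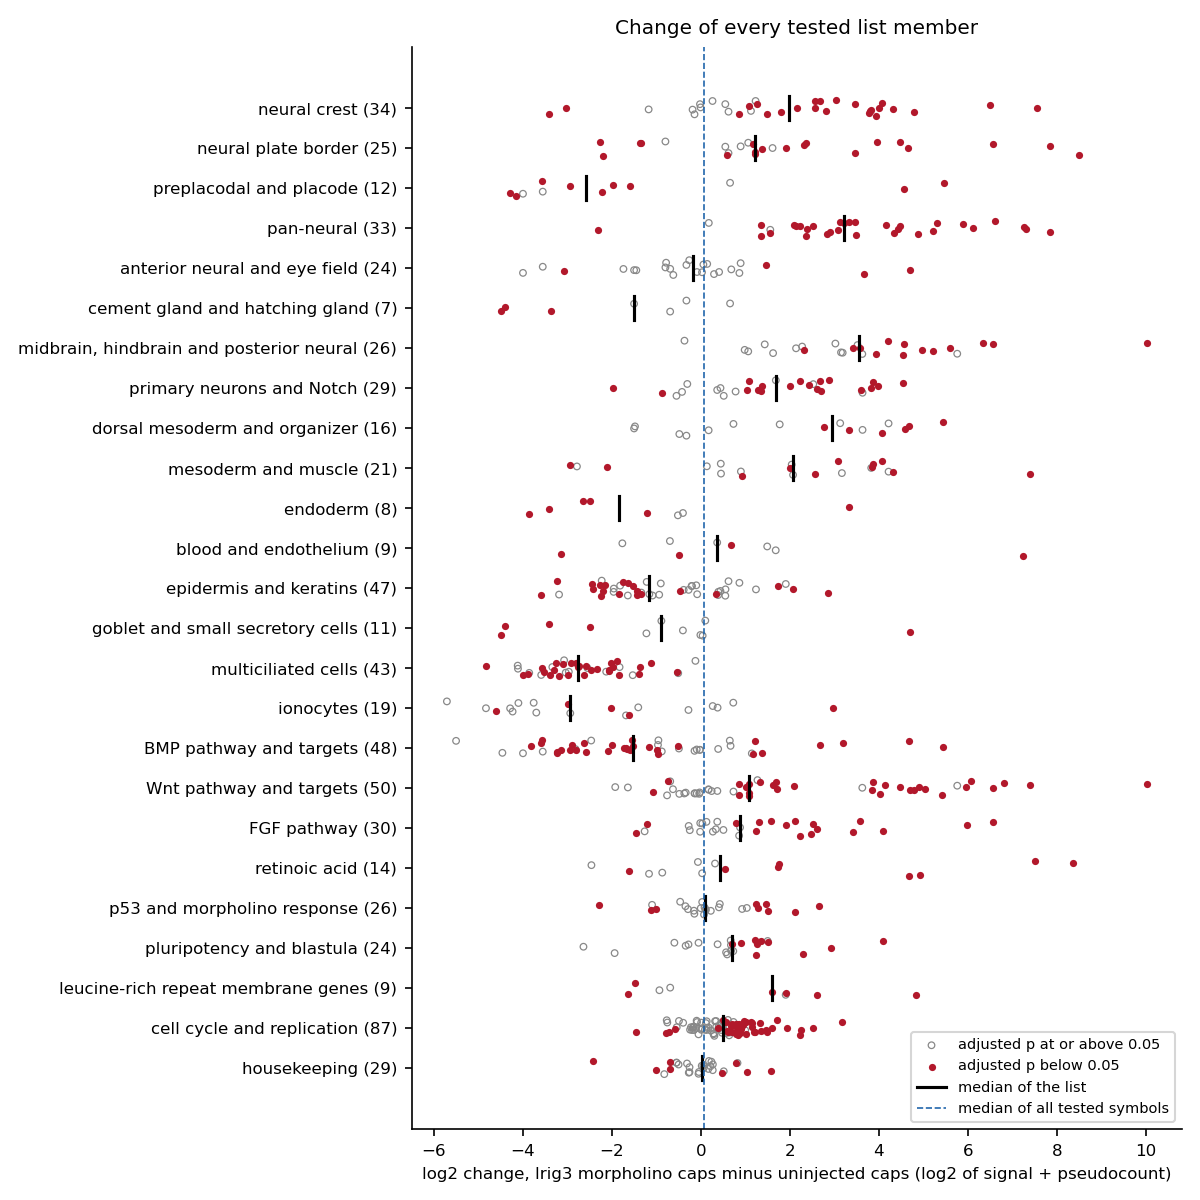
Log2 change of every tested list member, morpholino caps minus uninjected caps, with filled points for called genes, open points for genes not called, a black bar at the median of each list and a dashed line at the median of all tested symbols (0.08). The pan-neural and posterior lists lie to the right, at medians of 3.21 and 3.55, and the multiciliated and ionocyte lists to the left, at -2.76 and -2.94.

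Genes shared by all neural tissue stood far above their epidermal level in morpholino caps. Of 33 tested pan-neural genes, 30 rose, 1 fell and 2 did not pass the test. The median log2 change was 3.21 (3.13 with genes at background in 1 group set at their bound). In uninjected caps 9 of the 33 were at background and passed the filter through other arrays, so that a fall could not be seen in them. The progenitor gene sox2.L, a SoxB1 transcription factor, gave 5529 and 4065 in morpholino caps, against 245 and 213 in uninjected caps, a log2 change of 4.34 (SE 0.42, adjusted p = 0.00128). Its relatives sox3.S and sox3.L had 10335 and 9546 in morpholino caps, against 933 and 844 in uninjected caps, and 3790.4 and 4082 in morpholino caps, against 435 and 404 in uninjected caps, with log2 changes of 3.48 and 3.21. Neither gene was absent from uninjected caps, but on every morpholino array all 3 probe sets were above both uninjected arrays. The zinc-finger genes zic1.S and zic2.L, which act in early neural and border cells, had 12569 and 15904 in morpholino caps, against 42.6 and 73.1 in uninjected caps, and 9519 and 9996 in morpholino caps, against 49.7 and 67.3 in uninjected caps. Their log2 changes were 7.85 and 7.27. Zeb2.S, which encodes a repressor of BMP targets in neural ectoderm, was at least 104-fold higher (adjusted p = 7.62e-05), with 2926 and 3496 in morpholino caps, against 20.8 and 10.5 in uninjected caps. The N-cadherin gene cdh2.L, whose product replaces E-cadherin in the neural plate, gave 3024 and 2412 in morpholino caps, against 56.9 and 28.6 in uninjected caps, a log2 change of 5.88 (SE 0.34, adjusted p = 0.000196), while a second probe set for it had a log2 change of -0.34 that did not pass. Sox11.S, a SoxC gene of neural and placodal cells that stands in the placode list, had 10997 and 8526 in morpholino caps, against 186 and 243 in uninjected caps, a log2 change of 5.47 (SE 0.22, adjusted p = 7.62e-05). The single pan-neural gene that fell, the synaptic vesicle gene syt1.L, was named after its values were seen; it had 1350.3 and 3322 in morpholino caps, against 10620 and 10621 in uninjected caps. Pan-neural genes that rose numbered 28, 30, 28 and 28, and those that fell 0, 1, 0 and 0, with morpholino replicates 1 and 2 and uninjected replicates 1 and 2 left out in turn. With the replicate number as a block 0 fell.

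Genes of the forebrain and eye field, in contrast, for the most part did not pass the test against uninjected caps. Of 24 tested anterior neural and eye field genes, 3 rose, 1 fell and 20 did not pass the test, so that 16.7% were called. This share cannot be set against the background share, because 12 of the 24 were at background in morpholino caps and 10 in uninjected caps. Genes at background in both groups, such as rax.S and rax.L below, passed the filter through chordin caps and could hardly be called here. The eye-field transcription factor gene rax.S gave 11.7 and 13.4 in morpholino caps, against 14.3 and 1.05 in uninjected caps, and rax.L gave 3.11 and 2.16 in morpholino caps, against 2.71 and 2.28 in uninjected caps, all at background. Six6.S and six6.L, which act in eye and pituitary, had 35.6 and 32.8 in morpholino caps, against 29.8 and 19.9 in uninjected caps, and 22.5 and 1.33 in morpholino caps, against 9.95 and 26.0 in uninjected caps. Otx2.S and otx2.L, homeobox genes of forebrain and midbrain, had 84.5 and 255 in morpholino caps, against 124 and 279 in uninjected caps, and 29.7 and 182 in morpholino caps, against 164 and 305 in uninjected caps, with log2 changes of -0.33 and -1.50 that did not pass. Pax6.L, which acts in eye, forebrain, hindbrain and spinal cord, was the exception with the largest change, 2389 and 518 in morpholino caps, against 44.9 and 31.5 in uninjected caps, a log2 change of 4.71 (SE 0.64, adjusted p = 0.00384). Emx2.L, a dorsal forebrain gene, and sp8.L, a zinc-finger gene of forebrain and limb, also rose, by log2 changes of 3.67 and 1.46, and dlx2.S, a ventral forebrain and crest gene, fell (-3.08). Cement gland genes were lower: agr2.L and agr2.S, which encode a secretory protein disulfide isomerase, had 57.7 and 1289 in morpholino caps, against 6433 and 5608 in uninjected caps, and 85.7 and 1211 in morpholino caps, against 10856 and 5223 in uninjected caps. Their log2 changes were -4.40 and -4.50, the largest falls of the cement gland list, in which 3 of 7 members fell (both agr2 copies and ag1.S, another cement gland secretory gene, at -3.37) and none rose. Under spike-in scaling 1 of them fell, and 2, 4, 0 and 2 with morpholino replicates 1 and 2 and uninjected replicates 1 and 2 left out in turn. Agr2 is also used by mucus-secreting cells of the epidermis. With the replicate block 1 of these genes fell, agr2.L and agr2.S having adjusted p = 0.0618 and 0.0879. Agr2.L no longer passed without either uninjected array (adjusted p up to 0.128). Agr2.S, sp8.L and dlx2.S no longer passed without either uninjected array or morpholino replicate 1 (adjusted p up to 0.196). Ag1.S no longer passed without uninjected replicate 1 (adjusted p = 0.0510). Under spike-in scaling agr2.L, agr2.S, sp8.L and dlx2.S did not pass (adjusted p up to 0.168). Anterior genes that fell numbered 0, 5, 0 and 0, and those that rose 2, 3, 2 and 2, with morpholino replicates 1 and 2 and uninjected replicates 1 and 2 left out in turn.

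In the list of midbrain, hindbrain and posterior genes, 13 of 26 rose, wnt3a.S being 1 of them, and 0 fell, and the rest did not pass. Of the 26, 13 were at background in uninjected caps and passed the filter through other arrays, so that a fall could not be seen in them. Hoxb2.S, a homeobox gene of rhombomeres and their crest, gave 1176 and 1224 in morpholino caps, against 10.1 and 9.21 in uninjected caps, at least 39.3-fold higher (adjusted p = 7.62e-05). Hoxa2.S and hoxa2.L, Hox genes of the anterior hindbrain, had 1117 and 502 in morpholino caps, against 11.1 and 30.3 in uninjected caps, and 683 and 293 in morpholino caps, against 20.2 and 18.4 in uninjected caps, for a log2 change of 4.97 and a rise of at least 14.8-fold. Pax2.L, which acts at the midbrain-hindbrain boundary and in otic tissue, was at least 7.86-fold higher (adjusted p = 0.00193). Lmx1b.1.S, a LIM homeobox gene of the same boundary and of the dorsal midline, was among the 12 largest rises of all, with 2744 and 2812 in morpholino caps, against 25.7 and 4.78 in uninjected caps. The probe set for egr2.L, the rhombomere 3 and 5 gene, did not pass the filter on low signals, at 1.16 and 17.2 in morpholino caps, against 1.46 and 4.48 in uninjected caps. Gbx2, which acts just behind the midbrain, is on the array as gbx2.1.S and gbx2.2.L, paralog names that the rule for gbx2 did not take up and that were looked at after other values; they had 797 and 1705 in morpholino caps, against 138 and 231 in uninjected caps, and 978 and 1929.6 in morpholino caps, against 78.5 and 99.9 in uninjected caps, both called. More posterior genes split by array. Cdx1.S, a caudal gene of the tail region, had 5363 and 17.1 in morpholino caps, against 0.71 and 1.62 in uninjected caps, and the trunk and tail Hox genes hoxa7.L and hoxc10.L had 3159 and 26.4 in morpholino caps, against 16.8 and 29.3 in uninjected caps, and 955 and 6.73 in morpholino caps, against 4.59 and 12.494 in uninjected caps; these 3 were picked after their values were seen and did not pass (adjusted p = 0.137, 0.202 and 0.286). On replicate 2 they lay at or near background. The median log2 change of the list was 3.55 (3.12 with genes at background in 1 group set at their bound). The number that rose was 8, 21, 6 and 9 with morpholino replicates 1 and 2 and uninjected replicates 1 and 2 left out in turn.

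Most called Notch pathway and neuronal genes were also higher. Of 29 such genes, 17 rose, 2 fell and 10 did not pass the test. The median log2 change was 1.68 (1.38 with genes at background in 1 group set at their bound). In uninjected caps 7 of the 29 were at background, so that a fall could not be seen in them. The Notch target hes1.S, a repressor that keeps progenitors undifferentiated, had 1589 and 1542 in morpholino caps, against 82.3 and 108 in uninjected caps, a log2 change of 3.98 (SE 0.18, adjusted p = 7.62e-05). Jag1.L, which encodes a Notch ligand, and lfng.S, which encodes a glycosyltransferase that tunes Notch, rose by log2 changes of 3.83 and 2.43. Ebf2.S, a transcription factor gene of differentiating neurons, was at least 8.57-fold higher (adjusted p = 0.00154). The proneural gene neurog2.S had 605 and 62.7 in morpholino caps, against 43.1 and 20.6 in uninjected caps; it was high on 1 morpholino array only and did not pass (log2 change 2.53, SE 0.94, adjusted p = 0.0762), although it passed with the replicate block (adjusted p = 0.0396). Its copy neurog2.L was below the filter, at 91.9 and 22.1 in morpholino caps, against 3.97 and 2.04 in uninjected caps. Under spike-in scaling 11 of the Notch and neuronal genes rose, and 9, 20, 10 and 11 rose with morpholino replicates 1 and 2 and uninjected replicates 1 and 2 left out in turn.

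Neural crest genes were higher than in uninjected caps in most cases. Of 34 tested members of the crest list, 22 rose, 2 fell and 10 did not pass the test. The median log2 change was 1.98 (1.31 with genes at background in 1 group set at their bound). In uninjected caps 8 of the 34 were at background and passed the filter through other arrays, so that a fall could not be seen in them. Snai2.L, the zinc-finger gene by which crest is usually recognised, gave 1046 and 1015 in morpholino caps, against 64.6 and 71.0 in uninjected caps, a log2 change of 3.83 (SE 0.19, adjusted p = 0.000105); its copy snai2.S had 45.8 and 51.0 in morpholino caps, against 20.5 and 72.5 in uninjected caps, and did not pass (log2 change 0.26, SE 0.74, adjusted p = 0.809). Foxd3.L and foxd3.S, forkhead genes of premigratory crest, had 1003 and 2553 in morpholino caps, against 5.06 and 1.97 in uninjected caps, and 1117 and 3934 in morpholino caps, against 20.2 and 16.0 in uninjected caps. All 4 uninjected values were at background, and the rises were at least 52.4-fold and at least 68.6-fold. Sox9.L and snai1.S, early crest regulators, rose by log2 changes of 4.32 and 3.79. Sox10.L, which acts in crest that forms glia and pigment cells, had 275 and 76.4 in morpholino caps, against 8.68 and 0.53 in uninjected caps, at least 4.93-fold higher (adjusted p = 0.00628). Twist1.L, a gene of migrating cranial crest, had 59.3 and 60.6 in morpholino caps, against 2.38 and 10.9 in uninjected caps, at least 2.13-fold higher (adjusted p = 0.00849). In both genes the morpholino arrays lay above both uninjected arrays, at low signals. The crest genes that fell, kit.L and kit.S, encode a receptor of melanocyte and blood precursors and were named after their values were seen, with log2 changes of -3.43 and -3.03. Crest genes that rose numbered 18, 19, 17 and 19, and those that fell 2, 3, 0 and 1, with morpholino replicates 1 and 2 and uninjected replicates 1 and 2 left out in turn.

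At the neural plate border, 15 of 25 genes rose and 4 fell, with a median log2 change of 1.22 (1.29 with genes at background in 1 group set at their bound). Under spike-in scaling 9 rose and 3 fell, and 12, 15, 11 and 11 rose with morpholino replicates 1 and 2 and uninjected replicates 1 and 2 left out in turn. Pax3.S, a paired-box gene of the border, gave 2721 and 2997 in morpholino caps, against 5.84 and 0.44 in uninjected caps, at least 93.3-fold higher (adjusted p = 7.62e-05). The probe sets for its copy pax3.L disagreed. The brightest, which stands for the symbol, had 1847 and 3626 in morpholino caps, against 5633 and 8081 in uninjected caps, and fell (log2 change -1.38, SE 0.39, adjusted p = 0.0351). Another had 4575 and 5233 in morpholino caps, against 0.66 and 6.93 in uninjected caps, which is background, and rose (adjusted p = 0.000130). No direction is therefore given for pax3.L. Znf703.S, a zinc-finger gene of border and crest, and dlx6.L, a distal-less homeobox gene, rose by log2 changes of 4.65 and 3.45. Msx2.L, a BMP-responsive border gene, had 4428 and 3249.6 in morpholino caps, against 2114 and 1255 in uninjected caps, a log2 change of 1.22 (SE 0.39, adjusted p = 0.0479), and adjusted p = 0.0728 with the replicate block. Msx2.L no longer passed without any of these 4 arrays (adjusted p up to 0.218). Pax3.L no longer passed without either uninjected array or morpholino replicate 1 (adjusted p up to 0.163). Under spike-in scaling msx2.L and pax3.L did not pass (adjusted p up to 0.154). Of the 12 preplacodal and placode genes, 2 rose and 7 fell, and the median log2 change was -2.59 (-2.95 with genes at background in 1 group set at their bound). Those that rose, sox11.S and pax2.L, are described above. Foxi4.2.L and foxi4.2.S, forkhead genes of epidermis and preplacodal ectoderm, had 24.997 and 48.4 in morpholino caps, against 913 and 552 in uninjected caps, and 20.2 and 59.0 in morpholino caps, against 964 and 638 in uninjected caps, log2 changes of -4.15 and -4.29. Placode genes fell in 1, 6, 1 and 1 cases with morpholino replicates 1 and 2 and uninjected replicates 1 and 2 left out in turn. Foxi4.2.S no longer passed without either uninjected array or morpholino replicate 1 (adjusted p up to 0.0730).

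**Figure D3:**
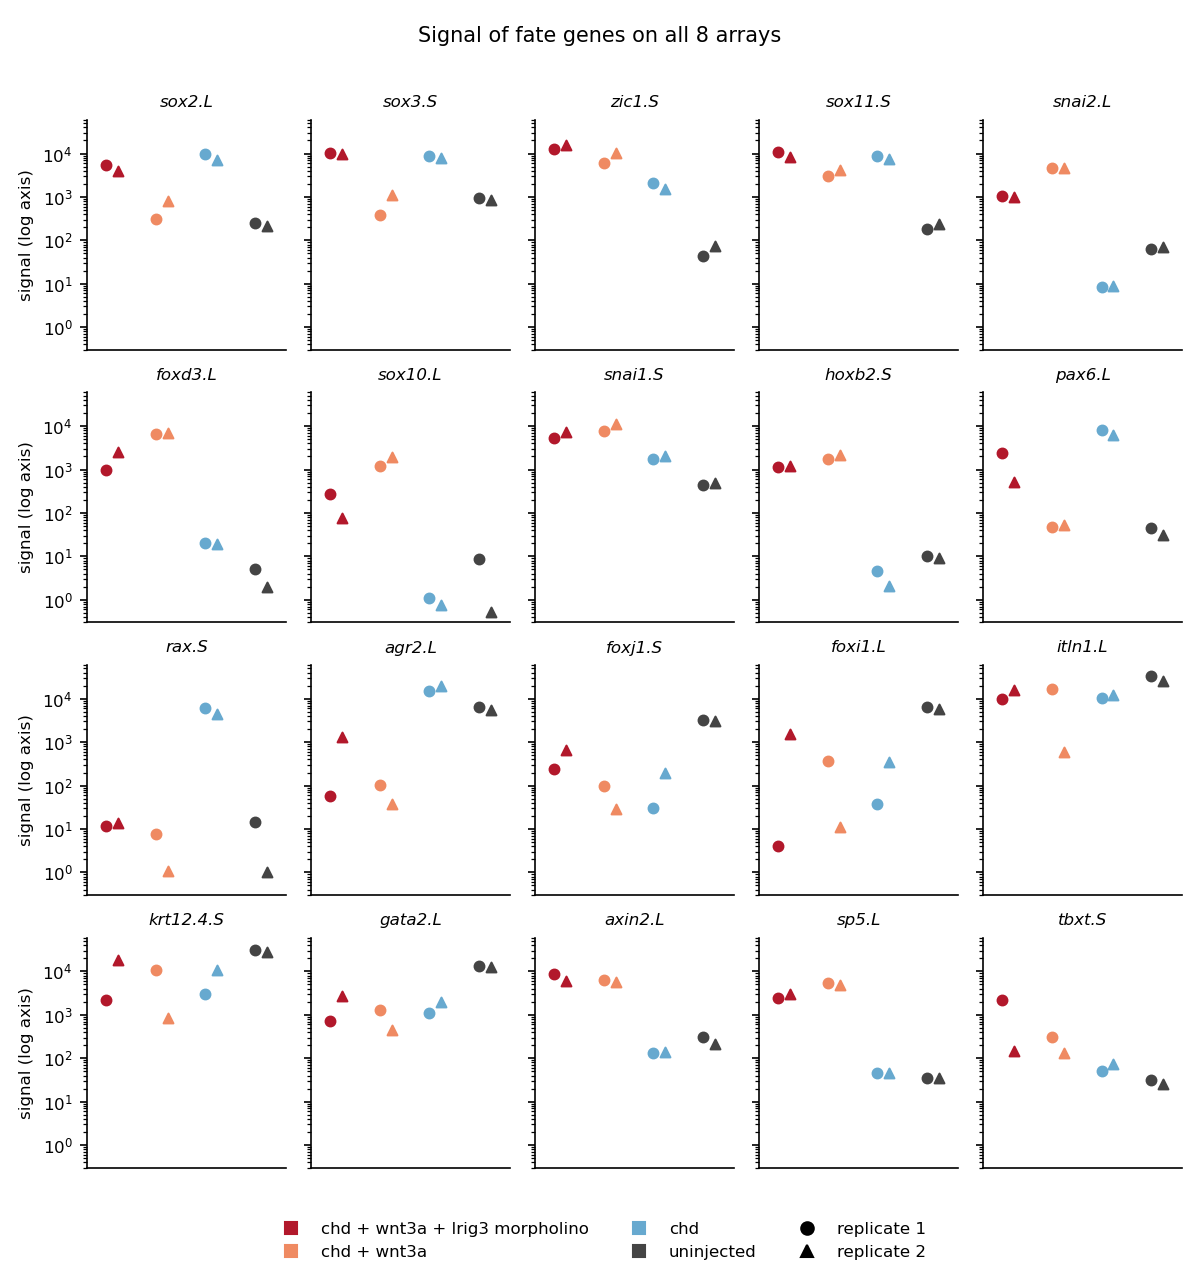
Signals (log axis) of 20 fate genes on all 8 arrays, with circles for replicate 1 and triangles for replicate 2, in morpholino caps (dark red, left), chordin and wnt3a caps (orange), chordin caps (blue) and uninjected caps (grey, right). Sox2.L, sox3.S, zic1.S and snai2.L lie above both uninjected arrays on both morpholino arrays, rax.S is at background in both groups, and foxi1.L, krt12.4.S and tbxt.S are far apart between the morpholino arrays.

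More epidermal genes were lower than higher in morpholino caps, and many kept high signals. Of 47 epidermal and keratin genes, 4 rose, 16 fell and 27 did not pass the test, with a median log2 change of -1.16. In a fit of the 4 arrays of the comparison alone, 5 rose and 24 fell. Klf5.S, a Krüppel-like factor gene of epithelia, had 67.4 and 97.4 in morpholino caps, against 549 and 401 in uninjected caps, a log2 change of -2.46 (SE 0.34, adjusted p = 0.00367). Dlx3.L, a BMP-dependent homeobox gene of non-neural ectoderm, had 1210.5 and 2542 in morpholino caps, against 7906 and 8371 in uninjected caps, a log2 change of -2.21 (SE 0.33, adjusted p = 0.00483). Gata2.L, a zinc-finger gene of ventral ectoderm, had 715 and 2657 in morpholino caps, against 13440 and 12752 in uninjected caps, a log2 change of -3.24 (SE 0.71, adjusted p = 0.0156). Tp63.S, the regulator of basal epidermis, had 94.2 and 126 in morpholino caps, against 325 and 286 in uninjected caps, a log2 change of -1.44 (SE 0.44, adjusted p = 0.0402), and tp63.L did not pass (-0.90 on the log2 scale). Gata2.L no longer passed without either uninjected array or morpholino replicate 1 (adjusted p up to 0.0733). Tp63.S no longer passed without any of these 4 arrays (adjusted p up to 0.169). The larval keratin gene krt12.4.L kept signals of 12022 and 18087 in morpholino caps, against 29481 and 27078 in uninjected caps, and krt12.4.S had 2161 and 18245 in morpholino caps, against 31759 and 27384 in uninjected caps. Neither passed with all arrays (adjusted p = 0.204 and 0.248), and krt12.4.S was near its uninjected level on morpholino replicate 2 but not on replicate 1. In the fit of the 4 arrays alone krt12.4.L was lower (adjusted p = 0.0327) and krt12.4.S did not pass (adjusted p = 0.201). Among those that rose were cldn6.1.L, a claudin gene of tight junctions (2.06), and krt18.1.S, a simple-epithelium keratin gene (2.85). The summed signal of the 9 probe sets of fixed epidermal markers was 59046 and 78220 in morpholino caps, against 109897 and 96923 in uninjected caps, and none of these probe sets was at background in either group. Much of the morpholino sum came from epcam.L and epcam.S, which encode an epithelial adhesion protein and were not lower in morpholino caps, epcam.S having 19254 and 19084 in morpholino caps, against 15118 and 15171 in uninjected caps. Without them, a choice made after seeing the values, the other 7 summed to 18148 and 40986 in morpholino caps, against 77909 and 68227 in uninjected caps. Epidermal genes fell in 6, 15, 6 and 6 cases with morpholino replicates 1 and 2 and uninjected replicates 1 and 2 left out in turn, and the number that rose was 3, 6, 2 and 3.

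All 29 called genes among 43 multiciliated cell genes fell and none rose; the median log2 change was -2.76. Mcidas.S, which starts the multiciliated programme, had 3.25 and 57.5 in morpholino caps, against 794 and 536 in uninjected caps, a log2 change of -4.84 (SE 0.96, adjusted p = 0.0112). Foxj1.S and foxj1.L, which encode the regulator of motile cilia, had 235 and 647 in morpholino caps, against 3246 and 3012 in uninjected caps, and 81.7 and 119 in morpholino caps, against 655 and 416 in uninjected caps, log2 changes of -2.98 and -2.34. Ccno.L and ccno.S, cyclin O genes needed for centriole amplification, had 115 and 871 in morpholino caps, against 4819 and 4741 in uninjected caps, and 49.9 and 198 in morpholino caps, against 1632 and 1758 in uninjected caps. Foxn4.S, another transcription factor gene of these cells, had 70.5 and 194 in morpholino caps, against 984 and 1126 in uninjected caps, a log2 change of -3.10 (SE 0.44, adjusted p = 0.00393). In each of these genes both morpholino arrays lay below both uninjected arrays, and replicate 1 was the lower of the 2. Foxn4.S did not follow mcidas.S in all groups. In chordin caps foxn4.S had 1343 and 1678, above both uninjected arrays, where mcidas.S had 3.80 and 21.9. Tekt2.S, a tektin gene of ciliary microtubules from the fixed marker list, had 22.4 and 1089.8 in morpholino caps, against 2849 and 3164 in uninjected caps, and did not pass (adjusted p = 0.119). The count that fell was 7, 39, 4 and 7 with morpholino replicates 1 and 2 and uninjected replicates 1 and 2 left out in turn, and 15 when the 4 arrays of the comparison were fitted alone and 17 under spike-in scaling. Mcidas.S no longer passed without uninjected replicate 1 (adjusted p = 0.0643). Foxj1.S, ccno.L and ccno.S no longer passed without either uninjected array or morpholino replicate 1 (adjusted p up to 0.191). Under spike-in scaling foxj1.S, ccno.L and ccno.S did not pass (adjusted p up to 0.109). With the replicate block foxj1.S had adjusted p = 0.0723.

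In ionocytes, 1 of 19 genes rose and 4 fell, 26.3% called, although the median log2 change was -2.94. The morpholino arrays were far apart in these genes, and their SEs were large. Foxi1.L, the forkhead regulator of ionocytes, had 3.98 and 1507 in morpholino caps, against 6511 and 5845 in uninjected caps, a log2 change of -5.71 (SE 2.50, adjusted p = 0.116). Ca12.L, a carbonic anhydrase gene, and atp6v1b1.L, a proton pump subunit gene, had 24.8 and 899 in morpholino caps, against 3560.1 and 2903 in uninjected caps, and 28.8 and 1816 in morpholino caps, against 3924 and 5577 in uninjected caps. None of the 3 passed. Ionocyte genes that fell numbered 1, 13, 2 and 1 with morpholino replicates 1 and 2 and uninjected replicates 1 and 2 left out in turn, foxi1.L among them without morpholino replicate 2 (adjusted p = 0.0189). Called lower with all arrays were tfcp2l1.L, tfcp2l1.S and ubp1.L, which encode transcription factors of the CP2 family, and the proton pump subunit gene atp6v0d1.L (log2 changes -2.02, -2.98, -4.60 and -1.61). Tfcp2l1.L no longer passed without morpholino replicate 1 or uninjected replicate 2 (adjusted p up to 0.0592). Tfcp2l1.S and ubp1.L no longer passed without either uninjected array or morpholino replicate 1 (adjusted p up to 0.143). Under spike-in scaling ubp1.L did not pass (adjusted p = 0.165). With the replicate block ubp1.L had adjusted p = 0.0723 and 2 genes of the list rose. Pfkfb3.S, which encodes a regulator of glycolysis and stands in this list, rose (2.97). The goblet cell gene itln1.L, which encodes the secreted lectin intelectin, had 9992 and 15923 in morpholino caps, against 33090 and 26296 in uninjected caps, and did not pass (log2 change -1.23, SE 1.32, adjusted p = 0.499). Chordin and wnt3a caps, which enter that SE, had 16683 and 601. In the fit of the 4 arrays of the comparison alone itln1.L was lower (adjusted p = 0.0303). Of 11 goblet and small secretory cell genes 4 fell, both agr2 copies and both copies of foxa1, a forkhead gene of secretory cells and endoderm, and 1 rose, pax6.L, which that list holds for secretory cells. With the replicate block 1 of them fell, under spike-in scaling 1, and 1, 5, 0 and 0 with morpholino replicates 1 and 2 and uninjected replicates 1 and 2 left out in turn.

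Most called BMP pathway and target genes were lower. Of 48 BMP pathway and target genes, 7 rose, 23 fell and 18 did not pass the test, with a median log2 change of -1.54. Twsg1.S, which encodes the BMP-binding protein Twisted gastrulation, had 147 and 236 in morpholino caps, against 1153 and 1143 in uninjected caps, a log2 change of -2.59 (SE 0.27, adjusted p = 0.00158). The feedback inhibitor gene szl.L (sizzled) had 6.8 and 1254 in morpholino caps, against 6140.2 and 5065 in uninjected caps, and szl.S had 12.417 and 366 in morpholino caps, against 1824 and 1735 in uninjected caps. Neither passed with all arrays (adjusted p = 0.102 and 0.0532), and szl.S passed with the replicate block (adjusted p = 0.0340). Nog.L and fst.L, which encode the antagonists Noggin and Follistatin, had 1479 and 659 in morpholino caps, against 14.7 and 20.9 in uninjected caps, and 503 and 539.9 in morpholino caps, against 21.0 and 11.1 in uninjected caps, at background in uninjected caps. They rose at least 32.4-fold and at least 17.2-fold. Bmp2.S, a ligand gene, and msx1.L, a target gene, rose by log2 changes of 2.67 and 1.18. Under spike-in scaling msx1.L did not pass (adjusted p = 0.117). Genes of the BMP list fell in 12, 23, 10 and 12 cases with morpholino replicates 1 and 2 and uninjected replicates 1 and 2 left out in turn.

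Most called Wnt pathway and target genes were higher than in uninjected caps. Of 50 tested members, 27 rose, 2 fell and 21 did not pass the test, with a median log2 change of 1.09. The risers include wnt3a.S itself. In uninjected caps 12 of the 50 were at background and passed the filter through other arrays, so that a fall could not be seen in them. Axin2.S and axin2.L, feedback inhibitors and general Wnt targets, had 3628 and 4005 in morpholino caps, against 133 and 91.5 in uninjected caps, and 8512 and 6135 in morpholino caps, against 307 and 215 in uninjected caps, log2 changes of 5.04 and 4.79. Sp5.L, a zinc-finger gene and direct Wnt target, had 2393 and 3053 in morpholino caps, against 35.037 and 35.2 in uninjected caps, a log2 change of 6.07 (SE 0.19, adjusted p = 4.36e-05). Sp5.S was at least 3.8-fold higher (adjusted p = 0.00217). Wnt8a.L, a ligand gene of ventrolateral mesoderm and itself a Wnt target, had 4612 and 4777 in morpholino caps, against 17.4 and 29.0 in uninjected caps, a log2 change of 7.40 (SE 0.51, adjusted p = 0.000366). In the FGF list 15 of 30 genes rose and 2 fell (median 0.87), the risers including the receptor genes fgfr4.L and fgfr1.L, with log2 changes of 4.101 and 2.48, and the ligand gene fgf3.L, at least 45.9-fold higher. Dusp6.S, a phosphatase gene induced by FGF signals, rose by 2.22. In the retinoic acid list 7 of 14 genes rose and 1 fell (median 0.43). Cyp26a1.L and cyp26c1.S, which encode enzymes that degrade retinoic acid, were at least 8.21-fold and at least 53.7-fold higher, cyp26c1.S with 620.1 and 4336 in morpholino caps, against 1.8 and 6.39 in uninjected caps. Crabp2.L, a retinoic acid binding protein gene, had 8336 and 11700 in morpholino caps, against 17.6 and 34.0 in uninjected caps, a log2 change of 8.37 (SE 0.77, adjusted p = 0.00115), although another probe set for it had a log2 change of -0.43 that did not pass. Rarg.S, a receptor gene, rose by 1.76. Rises numbered 19, 28, 19 and 20 among Wnt genes, 13, 16, 12 and 13 among FGF genes and 5, 6, 5 and 6 among retinoic acid genes with morpholino replicates 1 and 2 and uninjected replicates 1 and 2 left out in turn.

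Several mesodermal genes, brachyury and muscle genes among them, were far higher on 1 morpholino array than on the other. Tbxt.L and tbxt.S (brachyury), which mark early mesoderm and notochord and are active in the posterior growth zone, had 1835 and 10.5 in morpholino caps, against 0.69 and 8.87 in uninjected caps, and 2152 and 144 in morpholino caps, against 31.6 and 26.0 in uninjected caps. Tbxt.S was called (log2 change 4.06, SE 1.13, adjusted p = 0.0322) and tbxt.L was not (adjusted p = 0.167). The muscle actin gene actc1.L had 1709 and 32.4 in morpholino caps, against 7.94 and 19.0 in uninjected caps, and the muscle regulator genes myod1.S and myod1.L had 232 and 16.0 in morpholino caps, against 46.1 and 23.0 in uninjected caps, and 182 and 23.3 in morpholino caps, against 20.7 and 20.3 in uninjected caps. On replicate 2 the muscle genes were close to the uninjected arrays, and neither actc1.L nor myod1.S passed (adjusted p = 0.112 and 0.540), while myod1.L was below the filter. Tbxt.S no longer passed without either uninjected array or morpholino replicate 1 (adjusted p up to 0.124). Under spike-in scaling tbxt.S did not pass (adjusted p = 0.107). The 8 probe sets of fixed notochord and mesoderm markers summed to 7939 and 333 in morpholino caps, against 167 and 170.1 in uninjected caps, and shh.L, the notochord signal gene, was at background on all 4 arrays. The part of such cells in the neural and Hox values of replicate 1 was not tested. Of 59 mesoderm and muscle genes on the array only 21 passed the filter on low signals, so the 9 that rose and 2 that fell do not stand for the list. Those that rose include genes at similar signals on both morpholino arrays, wnt8a.L (given above) and pcdh8.L, a protocadherin gene of paraxial mesoderm (4.33 on the log2 scale). Neither followed tbxt.L in all of the other injected caps. Pcdh8.L had 751 and 824 in chordin caps, where tbxt.L had 15.3 and 3.45. In chordin and wnt3a caps wnt8a.L had 2449 and 4151, where tbxt.L had 110 and 6.87. In the remaining group each was low, pcdh8.L with 22.3 and 67.5 in chordin and wnt3a caps, and wnt8a.L with 1.68 and 14.0 in chordin caps. Wnt11b.L, a non-canonical Wnt ligand gene, also rose (3.85). Mesodermal rises numbered 4, 14, 5 and 4 with morpholino replicates 1 and 2 and uninjected replicates 1 and 2 left out in turn.

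Of 16 organizer and dorsal mesoderm genes 6 rose and none fell, so that 37.5% were called. This share cannot be set against the background share. In uninjected caps 9 of the 16 were at background, so that a fall could not be seen in them. The 6 were nog.L, chrd.1.S, fst.L, admp.S, tbxt.S and foxa2.L, a floor plate and endoderm gene that was at least 3.38-fold higher. Chordin message was injected, so the rise of chrd.1.S does not speak for the list. Organizer genes that rose numbered 5, 10, 5 and 5 with morpholino replicates 1 and 2 and uninjected replicates 1 and 2 left out in turn. The endodermal determinants sox17a.L and sox17a.S were below the filter, with 87.4 and 1.8 in morpholino caps, against 10.7 and 8.78 in uninjected caps, and 51.5 and 50.3 in morpholino caps, against 22.1 and 6.06 in uninjected caps. Of 8 tested endoderm genes 5 fell and 1 rose; those named by the rule, foxa1.L, foxa1.S, hhex.L, a homeobox gene of anterior endoderm, and slc2a2.L, a glucose transporter gene, had log2 changes of -3.41, -2.48, -3.86 and -1.22. Endoderm genes fell in 1, 5, 1 and 1 cases with morpholino replicates 1 and 2 and uninjected replicates 1 and 2 left out in turn. Foxa1.L, foxa1.S and hhex.L no longer passed without either uninjected array or morpholino replicate 1 (adjusted p up to 0.188). Under spike-in scaling foxa1.L did not pass (adjusted p = 0.0676). With the replicate block foxa1.L had adjusted p = 0.0676.

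Of 26 blood and endothelium genes on the array only 9 passed the filter on low signals. Among those 9 genes 2 rose and 2 fell, against 1 and 0 under spike-in scaling. The counts were 1, 2, 1 and 1 higher and 1, 1, 0 and 0 lower with morpholino replicates 1 and 2 and uninjected replicates 1 and 2 left out in turn. The probe set for the globin gene hbg1.L had 31178 and 27604 in morpholino caps, against 163 and 222 in uninjected caps, a log2 change of 7.23 (SE 0.27, adjusted p = 6.11e-05), and 14039 and 22990 in chordin and wnt3a caps, against 291 and 236 in chordin caps. A second probe set for hbg1.L did not follow it, with 108 and 32.9 in morpholino caps, against 90.4 and 69.8 in uninjected caps, and the blood markers gata1.L, gata1.S and hba1.S were at background in morpholino caps. No direction is therefore given for hbg1. The other calls of this list were smaller, aplnr.L, an endothelial receptor gene, at 0.67, cebpa.L, a myeloid and epithelial regulator gene, at -3.14, and spib.S, an Ets gene of early myeloid cells, at -0.50. Aplnr.L and spib.S no longer passed without any of these 4 arrays (adjusted p up to 0.189). Cebpa.L no longer passed without either uninjected array or morpholino replicate 1 (adjusted p up to 0.174). Under spike-in scaling aplnr.L, cebpa.L and spib.S did not pass (adjusted p up to 0.628).

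Genes outside tissue identity also moved. Of 87 cell cycle and replication genes, 38 rose, 4 fell and 45 did not pass the test, with a median log2 change of 0.49. Cdc6.L, a replication licensing gene, had 6329.9 and 6194 in morpholino caps, against 629 and 767 in uninjected caps, a log2 change of 3.16 (SE 0.18, adjusted p = 0.000168). Ccna2.L, ccnd1.L and mcm4.S, which encode cyclins A2 and D1 and a subunit of the replicative helicase, rose by log2 changes of 1.94, 1.72 and 2.24. Of these genes 9 rose under spike-in scaling, and 20, 28, 22 and 25 with morpholino replicates 1 and 2 and uninjected replicates 1 and 2 left out in turn. Of 24 pluripotency and blastula genes, 10 rose and 0 fell, or 13 and 2 with the replicate block and 3 and 0 under spike-in scaling. Tdgf1.3.L, a Nodal co-receptor gene, had 918 and 604 in morpholino caps, against 35.2 and 42.4 in uninjected caps, a log2 change of 4.096 (SE 0.41, adjusted p = 0.00128). The egg coat gene zpd.L and the POU factor genes pou5f3.3.L and pou5f3.1.L, relatives of mammalian Oct4, had log2 changes of 2.30, 2.92 and -0.34, of which pou5f3.1.L did not pass. Pluripotency genes rose in 4, 9, 5 and 3 cases with morpholino replicates 1 and 2 and uninjected replicates 1 and 2 left out in turn. Pou5f3.3.L no longer passed without morpholino replicate 1 or uninjected replicate 2 (adjusted p up to 0.0623).

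Genes of the p53 and morpholino response were called in 34.6% of cases, near the background share, 6 higher and 3 lower of 26, with a median log2 change of 0.09 that was -0.15 under spike-in scaling. Sesn1.L and rrm2b.S, p53 targets in stress defence and nucleotide supply, rose (2.65 and 1.24), and bax.S and perp.S, p53 targets in cell death, fell (-2.29 and -1.01). With the replicate block 8 rose and 6 fell. Under spike-in scaling 2 rose and 3 fell, rrm2b.S no longer passing (adjusted p = 0.0662). Genes of this list that rose numbered 3, 7, 6 and 3, and those that fell 2, 2, 2 and 2, with morpholino replicates 1 and 2 and uninjected replicates 1 and 2 left out in turn. Of 29 housekeeping genes 4 rose and 4 fell, with a median of 0.02 (-0.23 under spike-in scaling), and 7 rose and 10 fell with the block, against 0 and 2 under spike-in scaling. Housekeeping genes numbered 2, 4, 2 and 2 higher and 2, 4, 2 and 0 lower with morpholino replicates 1 and 2 and uninjected replicates 1 and 2 left out in turn. The elongation factor gene eef1a1o.L had the largest of these changes, with 1519 and 4361 in morpholino caps, against 13348 and 14390 in uninjected caps, while the copy eef1a1o.S did not pass. Eef1a1o.L no longer passed without uninjected replicate 2 (adjusted p = 0.0515).

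The 12 largest rises with no overlap between the groups were, besides wnt3a.S, pax3.S, crabp2.L, zic1.S, foxd3.L, cyp26c1.S, wnt8a.L and lmx1b.1.S given above, pnhd.L, aqp3.L, ptn.L and nradd.L. Pnhd.L, which encodes the secreted protein Pinhead, had 7993 and 6451 in morpholino caps, against 15.4 and 10.2 in uninjected caps, at least 234-fold higher (adjusted p = 3.84e-05). Aqp3.L, a water and glycerol channel gene, had 4032 and 5707 in morpholino caps, against 7.12 and 13.2 in uninjected caps, at least 157-fold higher (adjusted p = 4.88e-05). Ptn.L, the gene of the growth factor pleiotrophin, had 14011 and 17361 in morpholino caps, against 51.6 and 47.6 in uninjected caps, a log2 change of 8.15 (SE 0.39, adjusted p = 0.000109). Nradd.L, which encodes a membrane protein related to the p75 neurotrophin receptor, had 6493 and 1637 in morpholino caps, against 1.85 and 16.2 in uninjected caps, at least 107-fold higher (adjusted p = 0.00174). All 4 were dim on both uninjected arrays and bright on both morpholino arrays. Among the 12 largest falls, mcidas.S, agr2.S, agr2.L, foxi4.2.S, foxi4.2.L, ubp1.L, ccno.S, ccno.L and hhex.L are given above. LOC100049756, for which no role is given here, had 0.62 and 6.52 in morpholino caps, against 874 and 685 in uninjected caps, at least 23.2-fold lower (adjusted p = 0.000919). Pou2f3.L, a POU factor gene known in mammals from tuft cells, had 1.75 and 30.2 in morpholino caps, against 455 and 159.9 in uninjected caps, and mab21l3.S, a gene of the mab-21 family, had 18.2 and 178 in morpholino caps, against 1102 and 1038 in uninjected caps. Pou2f3.L no longer passed without uninjected replicate 1 (adjusted p = 0.0700). Mab21l3.S no longer passed without either uninjected array (adjusted p up to 0.0674).

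The difference from caps with the 2 messages alone was tested directly. Limma called 1077 probe sets between morpholino caps and chordin and wnt3a caps (4.9%), 601 higher (2.73%) and 476 lower (2.16%). By symbols the share was 5.29%, 2.62% higher and 2.68% lower. This total rests on single arrays: it was 0 and 462 without morpholino replicates 1 and 2, 50 and 31 without chordin and wnt3a replicates 1 and 2, and 3289 with the replicate block and 32 with the 4 arrays of that comparison fitted alone. Without morpholino replicate 1 every call named here was therefore lost, and limma left 4035 probe sets at an unadjusted p below 0.05. Under spike-in scaling 140 were higher and 5216 lower. Among genes also called against uninjected caps, the 8 with the largest positive differences from chordin and wnt3a caps included 3 neural genes. Foxd4l1.1.S, a forkhead gene of immature neural ectoderm, had 532 and 415 in morpholino caps, against 17.3 and 6.06 in chordin and wnt3a caps, at least 16.8-fold higher (adjusted p = 0.0168). Sox3.S had 10335 and 9546 in morpholino caps, against 391 and 1128 in chordin and wnt3a caps, a log2 change of 3.89 (SE 0.43, adjusted p = 0.0168), and pax6.L had 2389 and 518 in morpholino caps, against 48.3 and 52.6 in chordin and wnt3a caps, a log2 change of 4.33 (SE 0.64, adjusted p = 0.0256). Sox2.L, which is not among those 8, was also higher, a log2 change of 3.24 (SE 0.42, adjusted p = 0.0216). The FGF ligand gene fgf3.L had 1121 and 1755 in morpholino caps, against 66.3 and 78.1 in chordin and wnt3a caps, a log2 change of 4.19 (SE 0.32, adjusted p = 0.00699). Also in this set were rbpms2.L, an RNA-binding protein gene, pou5f3.3.L, olfml3.L, a secreted olfactomedin-like protein gene, and pcdh8.L. With the 4 arrays of that comparison fitted alone, fgf3.L, foxd4l1.1.S and rbpms2.L passed (adjusted p = 0.0431, 0.0497 and 0.0431), rbpms2.L having 0.0486 with all 8 arrays. Sox3.S, pax6.L and sox2.L did not pass in that fit (adjusted p = 0.0870, 0.111 and 0.0919), nor did pou5f3.3.L, olfml3.L and pcdh8.L (adjusted p = 0.0913, 0.0877 and 0.0749). Against uninjected caps rbpms2.L no longer passed without either morpholino array or without either uninjected array.

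Genes lower than in chordin and wnt3a caps included regulators of the neural crest. Sox10.L had 275 and 76.4 in morpholino caps, against 1197 and 1965 in chordin and wnt3a caps, a log2 change of -3.35 (SE 0.67, adjusted p = 0.0430), and twist1.L had 59.3 and 60.6 in morpholino caps, against 598 and 600.5 in chordin and wnt3a caps, a log2 change of -3.21 (SE 0.47, adjusted p = 0.0238). Snai2.L had 1046 and 1015 in morpholino caps, against 4602 and 4592 in chordin and wnt3a caps, a log2 change of -2.15 (SE 0.19, adjusted p = 0.00983), and foxd3.L had 1003 and 2553 in morpholino caps, against 6763 and 7027 in chordin and wnt3a caps, a log2 change of -2.10 (SE 0.43, adjusted p = 0.0441). Each of these genes therefore lay between uninjected caps and chordin and wnt3a caps, above the first and below the second on both morpholino arrays. With the 4 arrays of that comparison fitted alone, snai2.L and twist1.L passed (adjusted p = 0.0431 and 0.0443). Sox10.L and foxd3.L did not pass in that fit (adjusted p = 0.127 and 0.141). With all 8 arrays the copies foxd3.S and snai2.S did not pass against chordin and wnt3a caps (adjusted p = 0.0722 and 0.106). Their log2 changes were -2.11 and -2.43. Of 34 crest genes 11 were lower and 1 higher than in chordin and wnt3a caps, and of 33 pan-neural genes 9 were higher and 0 lower. Pcdh8l.S, a protocadherin gene of migrating crest, inka1.L, a crest gene that encodes a kinase inhibitor, pmp22.S, a peripheral myelin gene, flrt3.L, and the metalloprotease genes astl2e.2.L and mmp28.L were, with sox10.L and twist1.L, the 8 genes with the largest negative differences among those also called against uninjected caps, astl2e.2.L having the largest (-3.46 on the log2 scale). Snai2.L and foxd3.L had smaller differences than these 8. Inka1.L had 996 and 1428 in morpholino caps, against 6933 and 5806 in chordin and wnt3a caps, a log2 change of -2.41 (SE 0.28, adjusted p = 0.0181), and mmp28.L had 147 and 213 in morpholino caps, against 989 and 1325 in chordin and wnt3a caps, a log2 change of -2.66 (SE 0.34, adjusted p = 0.0216). Neither inka1.L nor mmp28.L passed with those 4 arrays fitted alone (adjusted p = 0.0519 and 0.0658). Astl2e.2.L, pcdh8l.S, pmp22.S and flrt3.L did not pass in that fit either (adjusted p = 0.159, 0.0614, 0.0658 and 0.0685). Against uninjected caps pmp22.S did not pass under spike-in scaling (adjusted p = 0.0684). In the same comparison pmp22.S no longer passed without either morpholino array or uninjected replicate 1. Astl2e.2.L no longer passed there without either uninjected array. Among Wnt targets, axin2.L and axin2.S did not differ past the threshold between these groups, with 8512 and 6135 for axin2.L in morpholino caps, against 6179.7 and 5759 in chordin and wnt3a caps. Sp5.L was lower, with 2393 and 3053 in morpholino caps, against 5269 and 4863 in chordin and wnt3a caps. Its log2 change was -0.90 (SE 0.19, adjusted p = 0.0481), and it did not pass with the 4 arrays fitted alone (adjusted p = 0.106). The change of sp5.S, -0.88, did not pass (adjusted p = 0.321). For hoxb2.S the values were 1176 and 1224 in morpholino caps, against 1744 and 2223 in chordin and wnt3a caps. In the multiciliated list 1 gene was higher and 0 lower (2.33% called), in the ionocyte list 1 and 0 (5.26%), and in the epidermal list 1 and 1 (4.25%), none of these shares being above the background of 5.29%. The median log2 changes of these lists were 1.49, 0.72 and -0.07, against 0.006 over all tested symbols. The few calls therefore do not show that the groups were alike in multiciliated and ionocyte genes.

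**Figure D4:**
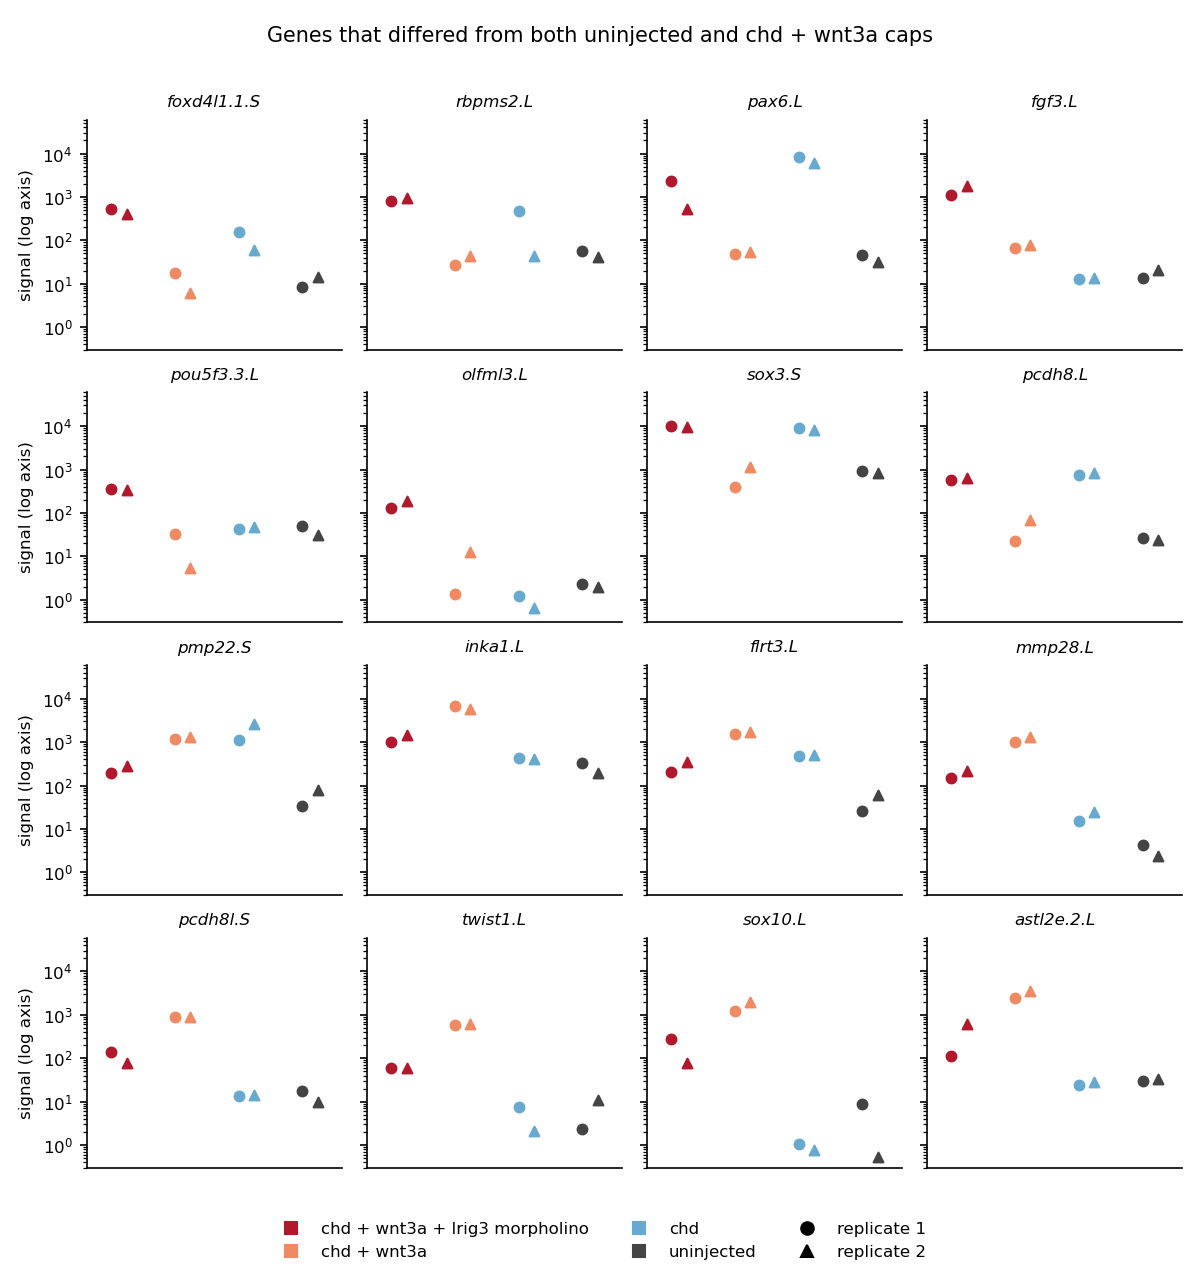
Signals (log axis) of the 16 genes that were called both against uninjected caps and against chordin and wnt3a caps and had the largest differences from chordin and wnt3a caps, 8 higher and 8 lower, on all 8 arrays; circles are replicate 1 and triangles replicate 2. In the upper rows morpholino caps (dark red, left) lie above chordin and wnt3a caps (orange), and in the lower rows they lie between the orange and the grey uninjected points.

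Against chordin caps 2504 probe sets were called (11.4%), 1346 higher (6.12%) and 1158 lower (5.26%), or 4726 with the replicate block. By symbols the share was 6.14% higher and 5.97% lower. Under spike-in scaling 403 were higher and 6482 lower. Without chordin replicates 1 and 2 the totals were 520 and 524, and without morpholino replicates 1 and 2 they were 742 and 1526. Of the anterior neural and eye field genes 19 of 24 were lower and 1 higher than in chordin caps. Of these 24, 12 were at background in morpholino caps, and some, rax.S and rax.L among them, passed the filter only through the chordin arrays. The count is therefore tilted towards genes that are high in chordin caps. Rax.S had 11.7 and 13.4 in morpholino caps, against 6199 and 4399 in chordin caps, at least 156-fold lower (adjusted p = 0.000859), and pax6.L had 2389 and 518 in morpholino caps, against 8323 and 6139.9 in chordin caps, a log2 change of -2.68 (SE 0.64, adjusted p = 0.0446). Sox2.L had 5529 and 4065 in morpholino caps, against 9627 and 7027 in chordin caps, a log2 change of -0.79 (SE 0.42, adjusted p = 0.262), and sox3.S had 10335 and 9546 in morpholino caps, against 8987 and 8044 in chordin caps, a log2 change of 0.22 (SE 0.43, adjusted p = 0.777); these did not pass. Under spike-in scaling sox2.L was lower than in chordin caps (-1.77 on the log2 scale, adjusted p = 0.0102) and the sign for sox3.S turned (-0.76). With the 4 arrays of that comparison fitted alone 1016 probe sets were called and pax6.L did not pass (adjusted p = 0.113). Of the crest genes 21 were higher and 3 lower, snai2.L having 1046 and 1015 in morpholino caps, against 8.33 and 9.07 in chordin caps. Of the 6 probe sets of fixed crest markers, 5 were at background in chordin caps. A lower level in morpholino caps could not be seen in them, so the crest count is tilted towards higher calls.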

How the data were processed

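Gene expression was measured on 8 Affymetrix arrays of Xenopus laevis animal caps, 4 groups of 2 samples. Biotin-labelled copies of total RNA were hybridised, per the labels' protocols. The deposited values are linear signal intensities, which the authors made with MAS5 per the submitters' processing notes (no version given in the sources used here). On every deposited array the 2% trimmed mean lay between 500.1 and 500.2, so no further scaling was applied. The labels do not name separate cultures, so the p-values rest on the spread between 2 arrays per group, which may be technical and which limits the precision.

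After removal of 96 control probe sets, 22000 of 32539 probe sets that exceeded the 40th percentile of their array on at least 2 arrays were tested as log2(signal + 5.22) with limma 3.58.1 in R 4.3.3. The pseudocount is the 10th signal percentile. The fit (lmFit, then eBayes with trend and robust) had 4 group means over all 8 arrays and 4 residual degrees of freedom, and was tested on simulated data. All adjusted p-values are limma's, with Benjamini-Hochberg adjustment within a contrast.

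Platform symbols were updated through a RefSeq table of Xenopus_laevis_v10.1, which matched 15384 probe sets. A single symbol was given for 15495 probe sets, several for 279 and none for 16765, and only the first kind was named. The brightest probe set stood for a symbol, and gene copies may cross-hybridise. The comparison, lists and rule for named genes were chosen with earlier results of these data known, and lists share members. The rule took the injected and targeted genes, a set of fate genes, up to 4 called members of each list by smallest adjusted p, the 12 largest rises and falls without overlap between groups, and up to 8 genes in each direction that also differed from chordin and wnt3a caps.

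Same-numbered replicates deviated together, the differences of replicate 1 minus replicate 2 having correlations between 0.172 and 0.505 over the 6 pairs of groups. The main fit did not use this pairing, and its p-values do not account for it. A fit with the replicate number as a block is quoted where it changes a call. Other alternatives were 2 pseudocounts, 2 filters, quantile normalization, spike-in scaling, plain eBayes, the 4 arrays alone, other probe sets and each array left out.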

Additional observations from a re-analysis of the deposited data

How the results depend on the processing

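The total of 7969 probe sets called against uninjected caps stayed within 1.5 times under both other pseudocounts, both other filters, quantile normalization, plain eBayes, the fit of the 4 arrays alone (6335) and the replicate block (10477). It was 3656 under spike-in scaling and 3151 to 7601 with single arrays left out, 3151 without morpholino replicate 1, 3265 without uninjected replicate 1 and 3588 without uninjected replicate 2. Against chordin and wnt3a caps the total of 1077 was 5356 under spike-in scaling, 32 with the 4 arrays alone, 3289 with the replicate block and 0 to 462 with single arrays left out, limma having 4035 at an unadjusted p below 0.05 where it called 0. Against chordin caps the total of 2504 was 6885, 1016 and 4726 under the same 3 settings, and 520 to 2165 with single arrays left out. Under spike-in scaling nearly all calls of the last 2 comparisons were lower in morpholino caps (5216 and 6482), the medians being -0.91 and -0.93. The cause was not tested. A fit with 1 array left in a group assumes that this array varies like those of the other groups. Of 145 tested named genes, 126 were called against uninjected caps, 92 of them in each of the 4 fits that left out an array of the comparison. None of the 126 changed direction under a change of scaling, filter, pseudocount, model or arrays, although genes not called changed sign in 11 cases; spike-in scaling ended 21 calls and added none, and the replicate block ended 6 and added 2. Other probe sets of the same symbol went against the brightest for pax3.L (9.18, 4.34 and 0.26), cdh2.L (-0.34), hbg1.L (-0.37) and crabp2.L (-0.43). Of the counts of called list members under all settings, 689 stayed within 1.5 times and 161 did not. Signal near background limits dim genes, whose changes the pseudocount understates.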

Other observations

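Further genes were far apart between the 2 morpholino arrays, and those below were picked after their values were seen. Cdx4.L, a caudal homeobox gene of the posterior axis, had 5425 and 300.2 in morpholino caps, 1068 and 169 in chordin and wnt3a caps and 18.8 and 2.57 in uninjected caps, and was at least 42.0-fold higher (adjusted p = 0.0152) than in uninjected caps. Hoxd10.L and hoxb9, Hox genes of trunk and tail, had 2781 and 301 in morpholino caps, 92.3 and 6.16 in chordin and wnt3a caps and 14.3 and 13.5 in uninjected caps, and 2524 and 86.1 in morpholino caps, 278 and 110.1 in chordin and wnt3a caps and 8.2 and 26.4 in uninjected caps. Vegt.S, a T-box gene of early mesoderm and endoderm, had 1363 and 32.6 in morpholino caps, 80.0 and 31.2 in chordin and wnt3a caps and 19.6 and 20.6 in uninjected caps. In each of these genes morpholino replicate 1 was the brightest array of the 6, and the chordin and wnt3a arrays also had replicate 1 above replicate 2. Cdx1.S followed the same order, with 5363 and 17.1 in morpholino caps, 966 and 11.9 in chordin and wnt3a caps and 0.71 and 1.62 in uninjected caps.

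In the other direction, krt19.L, a keratin gene, had 438 and 4155 in morpholino caps, 2577 and 4727 in chordin and wnt3a caps and 13438 and 11392 in uninjected caps. Ca2.L, a carbonic anhydrase gene, and atp6v1g3.L, a proton pump subunit gene, had 10.6 and 996 in morpholino caps, 86.4 and 12.363 in chordin and wnt3a caps and 1919 and 2428 in uninjected caps, and 16.4 and 1826 in morpholino caps, 273 and 16.6 in chordin and wnt3a caps and 5561 and 5758 in uninjected caps. In these 3 genes morpholino replicate 2 was above replicate 1 and below both uninjected arrays, and none of the 3 passed against uninjected caps (adjusted p = 0.103, 0.173 and 0.137). The ratio of 3′ to 5′ signal of the gapdh control probe sets was 1.3 and 1.76 in morpholino caps, against 1.41 and 1.63 in uninjected caps, and its part in these gaps was not tested.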
